A study of Homo sapiens with 11 samples.

Results

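SOX genes encode transcription factors that bind DNA through a high-mobility-group (HMG) box and are sorted into subgroups by the similarity of that box. The 10 genes described here are SOX4, SOX11 and SOX12 (subgroup SOXC), SOX5, SOX6 and SOX13 (SOXD), SOX8, SOX9 and SOX10 (SOXE) and SOX15 (SOXG). They were taken by symbol from the deposited table, as members of the SOX family other than SOX2 itself, out of 60605 features in all, and all 10 passed the filter on low values, as did 18828 features overall. The other 8 SOX genes looked up (SOX1, SOX3, SOX7, SOX14, SOX17, SOX18, SOX21 and SOX30) did not pass it and are not tested here.

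The libraries came from ARPE-19, an established human line derived from the retinal pigment epithelium (RPE), the pigmented layer that supports the photoreceptors. Stable lines expressed an open reading frame for 4 days: GFP, a fluorescent protein that served as the control (3 libraries), Oct4 (2), Sox2 (2), Klf4 (2), or OSK, the combination of Oct4, Sox2 and Klf4 (2). Library names of the Oct4, Sox2, Klf4 and OSK lines carry the tag mC, which the GFP names lack. Its part in the comparisons with GFP was not tested. The labels do not give the species of the reading frames, the promoter that drove them, how many clones a line held, or whether replicates were separate cultures, so p-values measure only the spread between these libraries, which may be technical. Polyadenylated RNA was sequenced, and the recovered read totals ran from 15053300 to 19791775 per library. GFP replicate 1 had reads on 42956 features and OSK replicate 1 on 32493, against 25853 to 26971 in the other 9 libraries, and values that these libraries move are also given without them.

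SOX2 is the SOXB1 member that, with Oct4, holds the pluripotent state, and SOX proteins usually act beside a partner factor of another family. SOXC proteins are activators best known from neural and mesenchymal progenitors. SOXD proteins lack an activation domain of their own and modulate the binding of other SOX proteins, SOX5 and SOX6 beside SOX9 in cartilage being the textbook case. SOXE proteins direct neural crest, glia, testis and cartilage, and SOX9 is also expressed in the RPE, where it acts with MITF and OTX2 on genes of that tissue. The question put to the data was how the cells' own SOX genes stood in the Sox2 line, and whether Oct4, Klf4 or the combination left them at other levels.

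Promoter sequence was looked up for the 10 genes in RefSeq (GRCh38.p14), and entries were found for SOX4, SOX5, SOX6, SOX12 and SOX13. The 250 bases upstream of each annotated start were searched on both strands for the SOX words ACAAAG and ACAATG, the Oct4-type octamer ATGCAAAT and the KLF word CACCC; none of these words contains another. Among 35116 human promoters of the same length, 13.7% held ACAAAG, 9.29% held ACAATG, 1.63% held the octamer and 54.7% held CACCC. The windows of 3 genes are shown, those of SOX5 and SOX6 because these genes were higher in the Sox2 line and that of SOX12 because it was lower in every line, with the matches in capitals. The SOX5 stretch is chr12:24562545-24562741 on the minus strand, cut where the GENCODE 29 exon begins. The SOX6 stretch is chr11:16356547-16356796 on the minus strand, before an internal RefSeq start, and the SOX12 stretch is chr20:325302-325551 on the plus strand.
SOX5: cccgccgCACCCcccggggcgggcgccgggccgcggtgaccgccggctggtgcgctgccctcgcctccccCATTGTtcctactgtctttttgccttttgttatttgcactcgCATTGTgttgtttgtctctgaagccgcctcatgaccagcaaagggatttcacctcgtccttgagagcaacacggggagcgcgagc
SOX6: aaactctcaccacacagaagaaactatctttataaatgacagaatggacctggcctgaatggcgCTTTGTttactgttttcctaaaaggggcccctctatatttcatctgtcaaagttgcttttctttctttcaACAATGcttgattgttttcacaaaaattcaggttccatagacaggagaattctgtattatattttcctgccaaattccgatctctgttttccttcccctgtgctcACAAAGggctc
SOX12: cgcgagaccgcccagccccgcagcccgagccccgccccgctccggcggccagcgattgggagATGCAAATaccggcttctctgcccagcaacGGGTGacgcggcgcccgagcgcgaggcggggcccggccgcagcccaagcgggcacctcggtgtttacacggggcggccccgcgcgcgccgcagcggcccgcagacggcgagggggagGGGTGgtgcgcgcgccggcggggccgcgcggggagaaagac
The SOX5 window held ACAATG at 2 places, both as the reverse complement CATTGT, beginning 180 and 138 bases before the start, and CACCC at 1 place. The SOX6 window before this internal start held ACAAAG at 2 places (1 of them as CTTTGT) and ACAATG at 1, while the window before the outermost SOX6 start, overlapped by an exon, held none of the words searched. RefSeq lists 5 starts for SOX6, and the window shown was picked as the one with the most matches; of the other 4, 1 held a single ACAATG. The SOX12 window held 1 octamer, 188 bases before the start, and CACCC at 2 places, both as GGGTG. SOX13 held CACCC at 4 places. SOX4 held no match, but all 250 bases of its window lie within a GENCODE 29 exon. A match is a description of the letters and not a measured binding site, and binding was not measured here.

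The targeted genes were as labelled. SOX2 stood at 82.42, 59.69 and 43.74 normalised counts in the GFP libraries and at 29105.98 and 29140.54 in the Sox2 libraries. OSK libraries held 17763.96 and 17581.85, a mean of 60.7% of that in the Sox2 line. Oct4 (197.4 and 178.55) and Klf4 libraries (136.48 and 183.96) were also above GFP for SOX2, with log2 changes of 1.63 and 1.39 (limma, adjusted p = 2.6e-06 and 1.82e-05). POU5F1, the gene for Oct4, was 7.99 higher on the log2 scale in the Oct4 line and KLF4 8.47 higher in the Klf4 line. SOX2 transcripts in GENCODE 29 share no 25-base word with any of the 10 genes; the sequence of the introduced reading frame itself is not given in the labels.

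Transcript levels were compared between genes as normalised counts per kb of annotated exon. In the GFP libraries SOX4 was the most abundant of the 10 (mean 1616 per kb), followed by SOX8 (1068), SOX9 (416.3) and SOX12 (219.6), and the libraries of neighbours in this order did not overlap. SOX13 (47.5), SOX15 (21.96) and SOX5 (5.13) came next, and the levels of SOX6, SOX11 and SOX10 overlapped at 2.93, 2.69 and 2.14 per kb. Control cells thus carried mainly 1 SOXC and 2 SOXE transcripts of this family, and SOX2 itself was at 24.65 per kb.

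In the Sox2 line the summed level of the 10 genes was 1101 and 1122 per kb, against 2826, 3662 and 3718 in the GFP libraries. The SOXE sum was 225 and 247.9 per kb in the Sox2 libraries against 1142, 1609 and 1707 in GFP, and the SOXC sum was 778.9 and 772.9 against 1603, 1976 and 1937. SOXD went the other way, at 70.31 and 74.24 against 60.65, 49.08 and 56.95 per kb. Klf4 libraries kept a high total of 3144 and 3047 per kb, of which SOXE made up 74.1% and 69.5%. Sums were not tested, since the tests below are per gene.

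**Figure D1:**
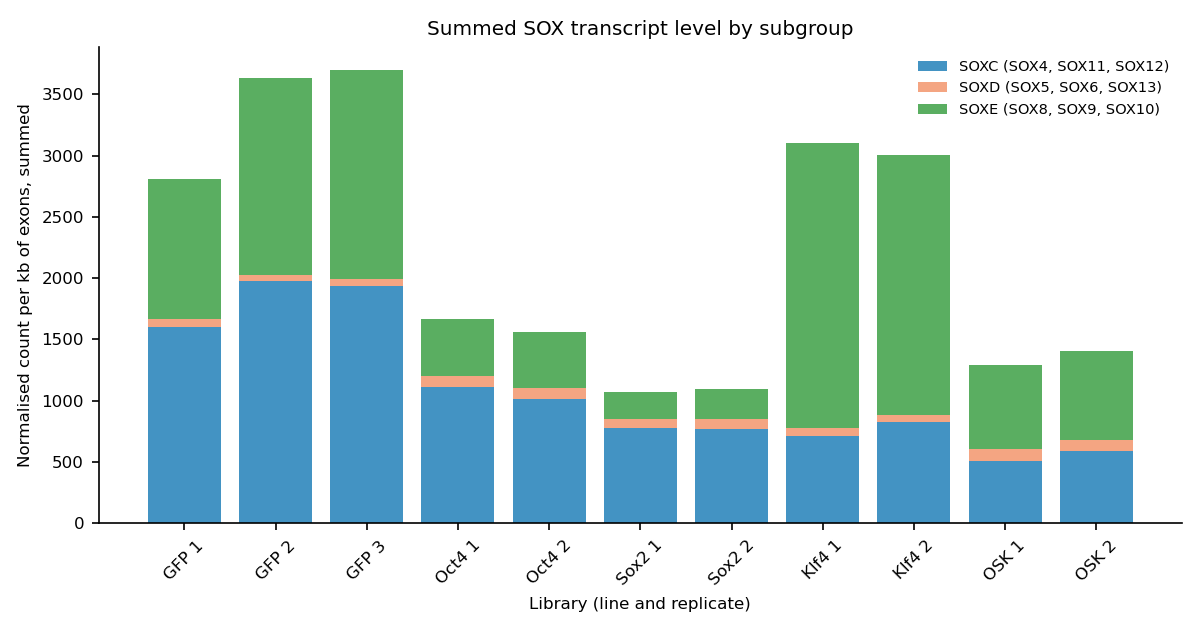
Summed level of SOXC, SOXD and SOXE genes in each of the 11 libraries, in normalised counts per kb of annotated exon (SOX15 is left out). The Sox2 bars are the lowest and the Klf4 bars are mostly SOXE, at 2330 and 2119 per kb.

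Of the 10 genes, 6 passed the test in Sox2 against GFP, 2 higher and 4 lower (limma over all 18828 genes, Benjamini-Hochberg adjusted p under 0.05). The background was wide, since 41.6% of all genes tested passed it, 21.7% higher and 19.9% lower, so the count by itself says little about these genes. Their median absolute log2 change was 0.953, against 0.41 for all genes. The same medians were 0.724 against 0.366 in Oct4, 0.885 against 0.339 in Klf4 and 0.809 against 0.376 in OSK. The larger median was therefore not particular to the Sox2 line. In Sox2 against GFP, SOX5 and SOX6 rose, SOX4, SOX8, SOX9 and SOX12 fell, and SOX10, SOX11, SOX13 and SOX15 did not pass the test. In bulk RNA, fewer cells expressing a gene and less RNA per cell cannot be told apart.

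**Figure D2:**
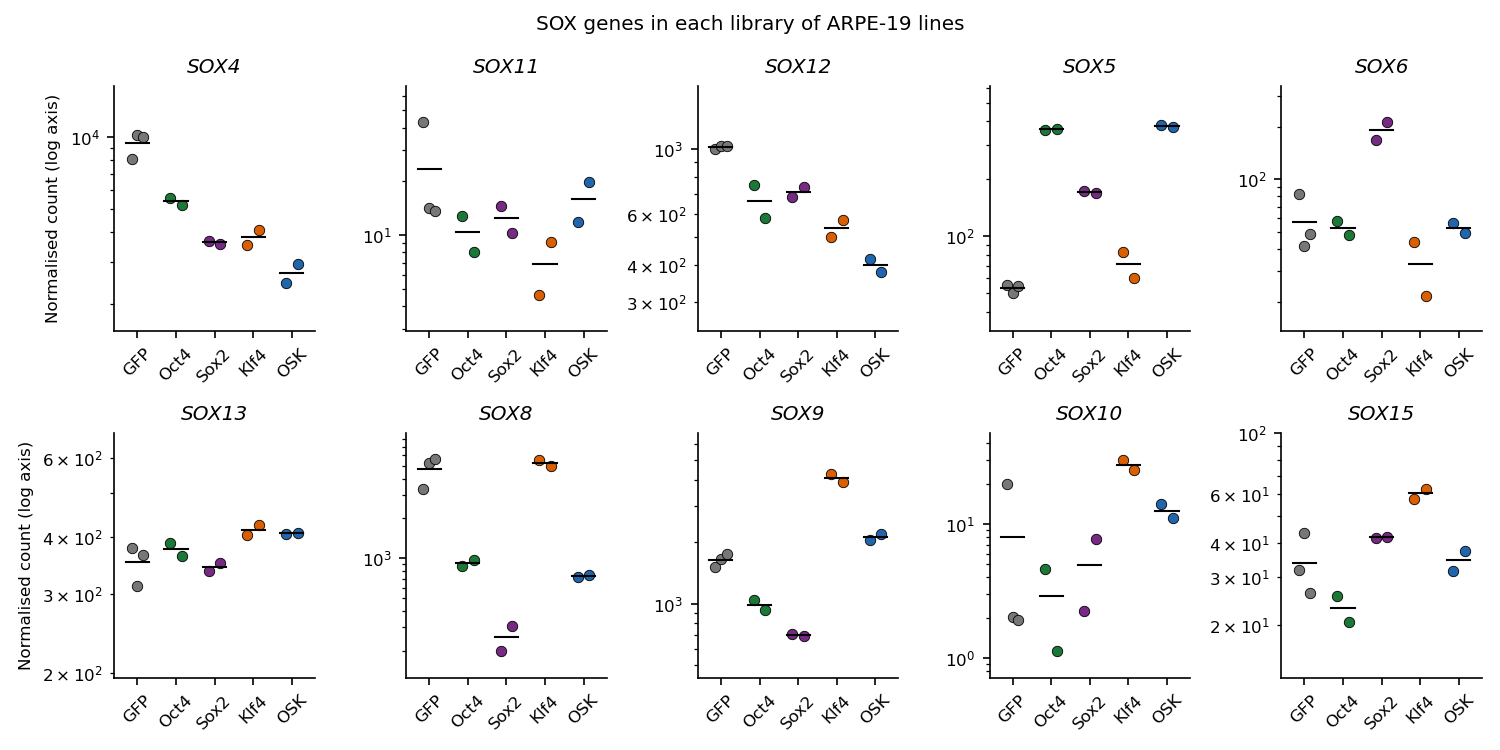
Normalised counts of each of the 10 SOX genes in every library, with a log axis of its own per gene; points are libraries and lines are group means. SOX8 and SOX9 are lowest in the Sox2 libraries and SOX6 is highest there, and SOX5 is high in the Oct4 and OSK libraries.

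SOX8, a SOXE gene of neural crest and testis, showed the largest change of the 10 genes in Sox2 against GFP. Its normalised counts were 3334.62, 5270.67 and 5592.33 in the GFP libraries and 198.59 and 307.39 in the Sox2 libraries. The Sox2 mean was 5.35% of the GFP mean, and no library of either group came near the other. The log2 change was -4.22 (SE 0.18, limma, adjusted p = 5.27e-11), and -4.45 without GFP replicate 1, which had the lowest SOX8 of the GFP libraries. Per kb, SOX8 went from the second most abundant of the 10 genes to a level (57.08) whose libraries overlapped those of SOX13.

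SOX9, the SOXE gene of cartilage and the RPE, was at 1511.4, 1651 and 1751.67 in GFP and at 706.84 and 694.41 in Sox2 libraries. Its log2 change of -1.22 (SE 0.08, limma, adjusted p = 5.24e-09) left SOX9 at 42.8% of its GFP mean. Since SOX8 fell further, SOX9 made up 79.8% and 71.2% of the SOXE level per kb in the Sox2 libraries, against 33.6%, 26.1% and 26.1% in GFP. SOX10, the neural crest and glial member, was at the limit of detection, with 2.24 and 7.71 in Sox2 libraries against 19.86, 2.02 and 1.94 in GFP. Its interval in Sox2 against GFP ran from -1.87 to 1.66 on the log2 scale, and the value was 0.83 without GFP replicate 1 (limma, adjusted p = 0.332), so no direction is given for it.

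SOX4, a SOXC activator, was at 8088.3, 10255.04 and 10028.87 in GFP and at 3684.53 and 3575.67 in Sox2 libraries. It fell by 1.37 on the log2 scale (SE 0.10, limma, adjusted p = 2.36e-08). SOX12, the weakest activator of the subgroup, was at 999.99, 1025.81 and 1024.56 in GFP and at 683.28 and 744.08 in Sox2, a log2 change of -0.51 (SE 0.10, limma, adjusted p = 0.000837). SOX11 had few reads, with 42.7, 14.16 and 13.61 in GFP and 14.59 and 10.27 in Sox2, and did not pass the test (log2 change -0.69, limma, adjusted p = 0.356). The high SOX11 value came from GFP replicate 1, and the other 2 GFP libraries lay within or near the Sox2 values. CASC15, a long noncoding RNA transcribed near SOX4, also fell in the Sox2 line, by 1.98 on the log2 scale (limma, adjusted p = 2.11e-09). Against GFP, CASC15 was at -0.05 in Oct4 and -0.31 in Klf4 and did not pass (limma, adjusted p = 0.76 and 0.062). In Klf4 it passed without GFP replicate 1 (-0.40). In OSK it was at -1.12 (limma, adjusted p = 1.69e-06).

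SOX5 and SOX6, the SOXD pair that assists SOX9 in cartilage, were the only 2 of the 10 that rose. SOX5 was at 55.61, 50.58 and 54.44 in GFP and 171.66 and 167.82 in Sox2 libraries, a log2 change of 1.65 (SE 0.15, limma, adjusted p = 2.21e-07). SOX6 was at 82.42, 41.48 and 48.6 in GFP and 167.17 and 213.2 in Sox2, a log2 change of 1.76 (SE 0.31, limma, adjusted p = 0.00027). Every Sox2 library was above every GFP library for both genes. SOX13, by far the most abundant SOXD gene per kb, was at 379.34, 312.6 and 365.5 in GFP and 336.59 and 351.06 in Sox2, with an interval of -0.24 to 0.18 on the log2 scale. SOX5 and SOX6 stayed low in absolute terms, at 16.25 and 9.69 per kb in the Sox2 line. SOX15, the SOXG gene of placenta and muscle precursors, was at 31.78, 43.5 and 26.25 in GFP and 41.51 and 41.96 in Sox2 and did not pass the test (log2 change 0.32, limma, adjusted p = 0.399).

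**Figure D3:**
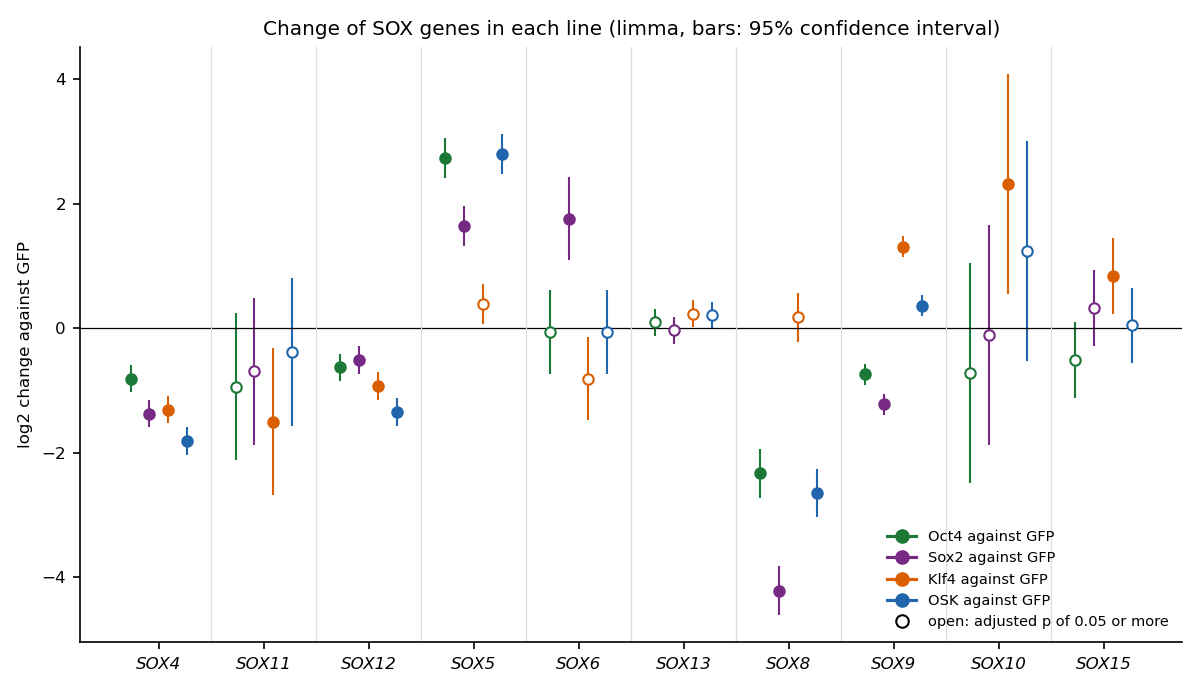
Log2 change against GFP of each of the 10 SOX genes in the Oct4, Sox2, Klf4 and OSK lines, with 95% confidence intervals from limma; filled points passed an adjusted p of 0.05. SOX4 and SOX12 are below 0 in all 4 lines, SOX9 is below 0 in Oct4 and Sox2 and above 0 in Klf4 and OSK, and SOX6 is filled in Sox2 alone.

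The other lines share the GFP libraries with this comparison, and their values are given beside it. In Oct4 against GFP 5 of the 10 passed the test, 1 higher and 4 lower, where 37.3% of all genes did (20.1% higher, 17.2% lower). In Klf4 against GFP 6 passed, 3 higher and 3 lower, against 33.5% of all genes (17.6% higher, 16% lower). In OSK against GFP 5 passed, 2 higher and 3 lower, against 39.7% (19.7% higher, 20% lower). SOX4, SOX9 and SOX12 passed in all 4 lines, SOX4 and SOX12 always lower and SOX9 lower in Oct4 and Sox2 but higher in Klf4 and OSK.

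SOX4 and SOX12 fell in all 4 lines. SOX4 was at 5549.27 and 5208.78 in Oct4, 3528.91 and 4086.03 in Klf4 and 2454.24 and 2937.82 in OSK libraries, all below the lowest GFP library. Its log2 changes were -0.81 in Oct4, -1.31 in Klf4 and -1.81 in OSK (limma, adjusted p = 1.18e-05, 8.07e-08 and 1.31e-09). SOX12 was at 750.12 and 579.13 in Oct4, 500.82 and 571.31 in Klf4 and 420.6 and 380.56 in OSK, with log2 changes of -0.62, -0.93 and -1.34 (limma, adjusted p = 0.000177, 4.16e-06 and 4.24e-08). The OSK libraries were the lowest for both genes. SOX4 did not differ between Sox2 and Klf4 beyond its error (difference -0.07, interval -0.30 to 0.17), and SOX12 did not between Sox2 and Oct4 (0.11, interval -0.13 to 0.36).

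SOX8 fell in the Oct4 line too, to 866.24 and 971.71 (log2 change -2.33, SE 0.18, limma, adjusted p = 6.22e-08). In the Klf4 libraries it was at 5492.88 and 4979.56, inside the GFP range, and the interval of the difference ran from -0.21 to 0.57. Sox2 libraries were below Oct4 libraries by 1.89 on the log2 scale (SE 0.20, limma, adjusted p = 2.13e-06), a mean of 27.5% of the Oct4 level. Against Klf4 the Sox2 line was 4.4 lower for SOX8 (limma, adjusted p = 8.2e-11).

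SOX9 and SOX8 parted in the Klf4 line. SOX9 was at 4259.9 and 3890.64 there, above every other library, with a log2 change of 1.32 against GFP (SE 0.08, limma, adjusted p = 4.65e-09). In the Oct4 libraries it was at 1043.9 and 924.78, a log2 change of -0.73 (limma, adjusted p = 2.23e-06). Sox2 libraries were lower in SOX9 than Oct4 libraries by 0.49 (limma, adjusted p = 0.000394) and than Klf4 libraries by 2.54 (limma, adjusted p = 3.35e-12). Klf4 was the line in which both SOXE genes of the GFP cells were present at about 1000 per kb or more (SOX8 1181, SOX9 1036), and there SOX4 was the third by level, at 650.6 per kb.

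SOX5 was highest in libraries that carried Oct4. It was at 362.29 and 365.11 in Oct4, 383.75 and 372.87 in OSK and 82.12 and 60.56 in Klf4 libraries. The log2 change against GFP was 2.74 in Oct4 (SE 0.15, limma, adjusted p = 9.28e-10) and 0.39 in Klf4 (limma, adjusted p = 0.0546, not passed). Sox2 libraries were lower in SOX5 than Oct4 libraries by 1.1 (limma, adjusted p = 6.94e-05), a mean of 46.7%, and higher than Klf4 libraries by 1.25 (limma, adjusted p = 1.18e-05). The Klf4 value of SOX5 rests on its 2 libraries, since it was 0.61 without Klf4 replicate 2 (limma, adjusted p = 0.0122) and 0.18 without Klf4 replicate 1 (limma, adjusted p = 0.504). SOX13 was at 403.67 and 426.2 in Klf4 and 407.59 and 409.16 in OSK libraries, and passed in both against GFP only when GFP replicate 1 was left out (log2 changes 0.29 and 0.27, limma, adjusted p = 0.0389 and 0.0482).

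SOX6 behaved differently from SOX5 in the Oct4 line. Oct4 libraries had 58.06 and 48.07 normalised counts of SOX6, inside the GFP range, and Klf4 libraries 43.95 and 21.71. Sox2 libraries were higher than Oct4 libraries by 1.82 (SE 0.34, limma, adjusted p = 0.000632) and higher than Klf4 libraries by 2.57 (SE 0.34, limma, adjusted p = 1.61e-05). The SOX6 level of Klf4 against GFP did not pass the test (-0.81, limma, adjusted p = 0.0598), but passed without GFP replicate 2, without Klf4 replicate 1 or with TMM scaling over all features (lowest adjusted p over the alternatives 0.0138). Without Klf4 replicate 2 it was -0.32 (limma, adjusted p = 0.556). SOX6 exons overlap 2 other annotated genes over 308 bases of 19636.

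In Sox2 against Oct4, 5 of the 10 passed (1 higher and 4 lower), where 33.4% of all genes did. In Sox2 against Klf4, 6 passed (3 higher and 3 lower), where 40.8% of all genes did. SOX12 was among the latter, 0.41 higher in Sox2 (limma, adjusted p = 0.00802), and lost the call without Sox2 replicate 2 or Klf4 replicate 1 (highest adjusted p 0.0936).

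The low-count genes gave less firm results in the Klf4 line. SOX10 was at 30.07 and 25.14 there, against 19.86, 2.02 and 1.94 in GFP, where the high value is GFP replicate 1. Its log2 change was 2.32 (SE 0.83, limma, adjusted p = 0.0416), and 3.26 without GFP replicate 1 (limma, adjusted p = 0.000724). Over all 3 GFP libraries the ratio of means was 3.48. GFP replicates 2 and 3 held no more than 3 reads each, and with GFP replicate 1 left out the Klf4 mean was at least 9.28-fold higher than a floor of 3 reads per library. The SOX10 call was lost on leaving out any of GFP replicate 2, GFP replicate 3, Klf4 replicate 1, Klf4 replicate 2, OSK replicate 1 or OSK replicate 2, and with edgeR or DESeq2 on recovered reads (adjusted p up to 0.192). OSK libraries had 14.09 and 11 counts of SOX10, passing only without GFP replicate 1 (log2 change 2.18, limma, adjusted p = 0.012). SOX10 shares 89 exon bases with POLR2F on the other strand, and the strand setting of the counting is not given in the sources used here.

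SOX11 and SOX15 had calls of the same kind in Klf4 against GFP. SOX11, at 4.63 and 9.14, was 1.5 lower (limma, adjusted p = 0.0492). That call was lost on leaving out GFP replicate 1 (-0.98, limma, adjusted p = 0.151), either library of the Oct4, Sox2, Klf4 or OSK groups, or with either count test. SOX15, at 57.83 and 62.84, was 0.84 higher (SE 0.29, limma, adjusted p = 0.0322), above every GFP library. SOX15 lost the call without GFP replicate 1 (limma, adjusted p = 0.0536), GFP replicate 3, Klf4 replicate 1 or Klf4 replicate 2. Its call was also lost with DESeq2, with only the compared groups and with the replicate number as a replicate block. SOX10 was also lower in Sox2 than in Klf4 libraries, by 2.42 (limma, adjusted p = 0.0438), a call lost without Sox2 replicate 1, without any Klf4 or OSK library, and with edgeR or DESeq2. Of the 6 calls in the Klf4 line, SOX4, SOX9 and SOX12 were the 3 whose calls held under every alternative run.

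OSK libraries hold SOX2 beside the other 2 factors. In OSK against Sox2, 6 of 10 passed the test, 3 higher and 3 lower, where 40.5% of all genes did. SOX8 was at 726.3 and 749.03 in OSK, 1.57 above the Sox2 line on the log2 scale (SE 0.20, limma, adjusted p = 1.12e-05). SOX9 was at 2034.72 and 2172.3, 1.58 above it (SE 0.09, limma, adjusted p = 8.99e-10) and 0.36 above GFP (limma, adjusted p = 0.00172). So SOX9, which fell in the Sox2 line, rose in OSK, and per kb it was the most abundant of the 10 genes there (534.6, against 460.7 for SOX4).

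SOX6 did not keep its rise in OSK. The OSK libraries had 56.37 and 49.5 counts, 27.8% of the Sox2 mean, and the difference from the Sox2 line was -1.82 (SE 0.34, limma, adjusted p = 0.000491). Against GFP the SOX6 interval was -0.73 to 0.61. SOX2 in OSK was at 60.7% of its Sox2-line level, and what part this has was not tested. SOX5 was 1.15 higher in OSK than in Sox2 (limma, adjusted p = 3.11e-05). SOX12 was 0.83 lower (limma, adjusted p = 2.16e-05). SOX4 was 0.43 lower (limma, adjusted p = 0.00541), a call lost without OSK replicate 1 (-0.30, limma, adjusted p = 0.0974).

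In OSK against Oct4, 3 of 10 passed, 1 higher and 2 lower, where 40.3% of all genes did, and the SOXD genes and SOX8 were not among them. The differences were 0.06 for SOX5 (interval -0.29 to 0.40) and -0.31 for SOX8 (interval -0.74 to 0.12), and for SOX6 the interval was -0.73 to 0.73. SOX8 passed when only these 2 groups entered the fit (limma, adjusted p = 0.016). SOX9 was 1.1 higher, SOX4 1.00 lower and SOX12 0.72 lower (limma, adjusted p = 5.95e-08, 2.58e-06 and 9.42e-05). In OSK against Klf4, 5 passed, 1 higher and 4 lower, where 21.5% of all genes did. SOX8 was 2.82 lower, SOX5 2.41 higher and SOX9 0.95 lower there (limma, adjusted p = 6e-08, 3.34e-08 and 8.43e-07). SOX4 and SOX12 were 0.50 and 0.42 lower (limma, adjusted p = 0.00399 and 0.0146); SOX4 lost the call without OSK replicate 1 or Klf4 replicate 2, and SOX12 without OSK replicate 2 or Klf4 replicate 2, with no filter and with TMM scaling over all features.

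**Figure D4:**
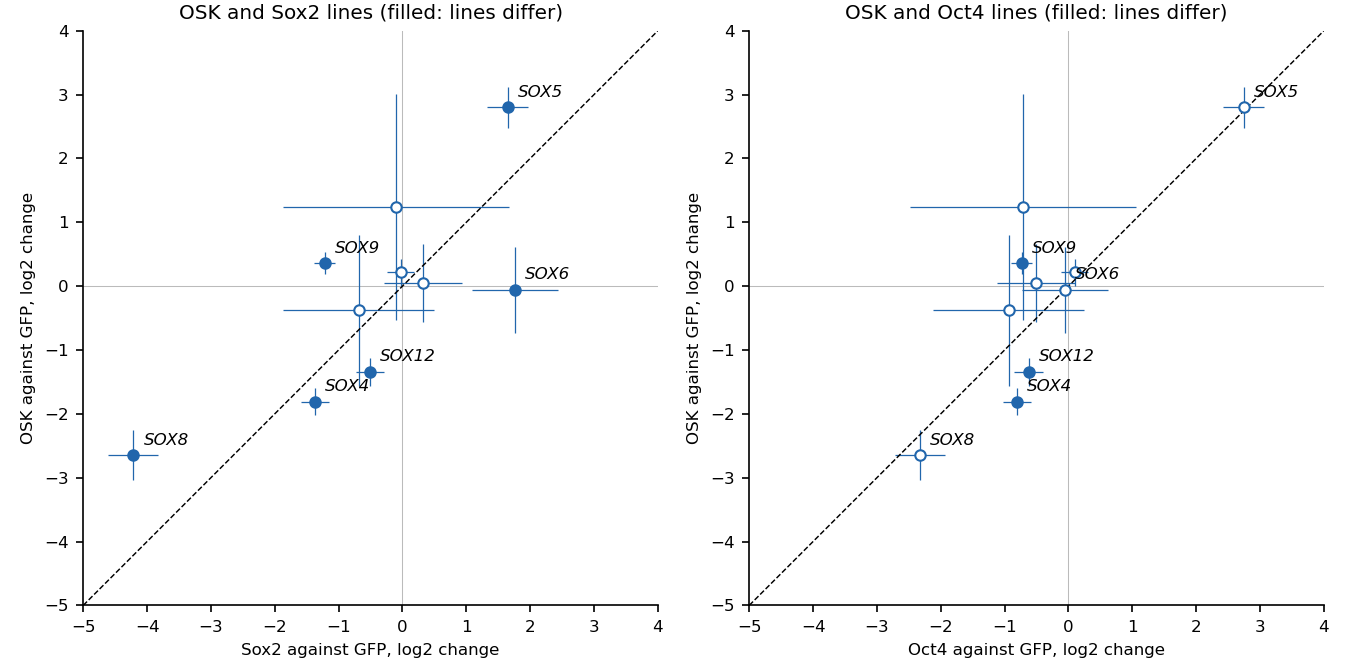
Log2 change against GFP in OSK (vertical axis) against that in the Sox2 line (left) or the Oct4 line (right) for the 10 SOX genes, with 95% confidence intervals; the dashed line marks equal change, filled points passed the limma test between the 2 lines, and all points share the GFP libraries. SOX6 leaves the line on the left, and SOX5, SOX6 and SOX8 lie near it on the right.

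The OSK change was then set against the sum of the log2 changes in the 3 single-factor lines, in the same limma fit. Of the 10 genes, 5 differed from the sum, 4 above it and 1 below it, where 35.9% of all genes did. SOX8 would have been at -6.37 by the sum and was at -2.64 in OSK, a difference of 3.72 (SE 0.37, limma, adjusted p = 1.13e-06). SOX4 was at -1.81 against a sum of -3.49 and SOX12 at -1.34 against -2.06, differences of 1.68 and 0.72 (limma, adjusted p = 9.68e-06 and 0.0132). SOX12 lost this call with TMM scaling over all features (limma, adjusted p = 0.109). SOX9 was at 0.36 against a sum of -0.64, a difference of 1.00 (limma, adjusted p = 0.000134). SOX5 was below its sum, at 2.80 against 4.78, a difference of -1.98 (SE 0.30, limma, adjusted p = 7.7e-05). For SOX4, SOX5, SOX8 and SOX12 the combined line thus moved the way the sum did but less far. SOX2 was lower in OSK than in the Sox2 line. POU5F1 was 1.8 lower in OSK than in the Oct4 line on the log2 scale. KLF4 did not differ between OSK and Klf4 libraries beyond its error (0.07, interval -0.59 to 0.74). Transcript doses of SOX2 and Oct4 were thus not matched between lines, and what part this has was not tested.

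By Pearson correlation of log2 values over the 11 libraries, the genes most like SOX8 were ITGB4 (0.993), an integrin of hemidesmosomes, PTGES (0.992), a prostaglandin E synthase, and CEROX1 (0.991), a noncoding RNA. ITGB4 averaged 13540 normalised counts in GFP, 4853 in Oct4, 2496 in Sox2, 17190 in Klf4 and 4656 in OSK. The genes most like SOX6 were RGMB-AS1 (0.940), MCC (0.935) and ADD3 (0.934). These correlations rest on 5 groups of libraries and are a description.

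Genes that SOX proteins are known to regulate or to bind beside were looked up as lists in the Sox2 line, where 41.6% of all genes tested passed (21.7% higher, 19.9% lower). Of 14 cartilage genes regulated by SOX9, SOX5 and SOX6, 11 were tested, and 1 rose and 3 fell, with a median log2 change of -0.79 against -0.02 for all genes. Without GFP replicate 1 the median was -0.35 over 10 tested genes. COL9A2, a cartilage collagen chain, was at 1743.77, 2564.52 and 2393.24 in GFP and 532.93 and 615.64 in Sox2 libraries, a log2 change of -1.94 (limma, adjusted p = 9.51e-08). CNMD (chondromodulin) fell by 2.22 (limma, adjusted p = 0.00161). COL11A2 was 1.13 higher (limma, adjusted p = 0.0448), and 1.73 higher without GFP replicate 1 (limma, adjusted p = 6e-05). The call was lost with edgeR, with DESeq2 and without any of GFP replicates 2 and 3, the Oct4, the Sox2 or the OSK libraries.

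In Oct4 against GFP 3 of the 11 cartilage genes rose and 2 fell, where 37.3% of all genes passed (20.1% higher, 17.2% lower). Without GFP replicate 1, 4 of 10 tested rose and 2 fell, and the share of all genes there is not given here. Outside the rule for named genes, 2 collagens of the list were chosen after their values were seen. COL2A1 was at 155.6 and 114.45 there against 49.65, 3.03 and 3.89 in GFP (log2 change 3.75, limma, adjusted p = 0.00362, and not passed with DESeq2, adjusted p = 0.0653), and the change was 4.92 without GFP replicate 1. COL10A1 was at 422.67 and 274.69 against 18.87, 11.13 and 16.53 (log2 change 4.4, limma, adjusted p = 5.09e-07). In the OSK libraries, where SOX5 was at 383.75 and 372.87, COL2A1 was at 7.59 and 1.1 and COL10A1 at 21.68 and 40.7, and neither passed the test against GFP (log2 changes -1.24 and 0.93). In the Sox2 line neither passed either (0.09 and -0.79). Whether the level of SOX5 or of any other SOX gene bears on these collagens was not tested.

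ERBB3, a neuregulin receptor chosen after its values were seen, was at 379.38 and 268.52 in the Klf4 libraries against 72.49, 10.12 and 9.72 in GFP (log2 change 3.96, limma, adjusted p = 8.3e-05, and 4.87 without GFP replicate 1). Of 4 genes regulated by SOX4 and SOX11, 3 were tested in Sox2 against GFP, where 41.6% of all genes passed. Of these 1 fell, TUBB3 (neuronal tubulin), by 2.40 (limma, adjusted p = 1.39e-08).

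Of 14 transcription factors that act beside SOX proteins, 12 were tested in the Sox2 line, and 3 rose and 5 fell (median -0.20), and without GFP replicate 1 3 rose and 4 fell (median -0.30). The share among all genes was 41.6%. MITF, the master regulator of pigment cells and a SOX9 partner in the RPE, was at 3263.12, 3353.6 and 3602.5 in GFP and 789.86 and 747.5 in Sox2 libraries, a log2 change of -2.15 (limma, adjusted p = 4.72e-12). LHX2, an eye-field factor, fell by 1.72 (limma, adjusted p = 1.21e-10). CTNNB1 (beta-catenin) rose by 1.24 (limma, adjusted p = 1.96e-10), from 6789.4, 6706.19 and 6827.84 to 16387.4 and 15589.63. POU3F1, a POU factor, was 1.16 lower (limma, adjusted p = 0.0326), a call lost with DESeq2 and without GFP replicate 1, GFP replicate 3 or either Sox2 library.

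Markers of cell types that could bear on these levels were read in the same libraries. The summed level of 12 RPE markers was 28340 to 31780 in GFP and 19410 to 20200 in Sox2 libraries, but the epithelial keratins KRT8 and KRT18, which did not pass the test, made up most of it (means 14280 and 5015 in Sox2). The other 10 markers, a subset taken after the values were seen, summed to 7638 to 10930 in GFP and 423 to 592.5 in Sox2. RPE65, the visual cycle isomerase that defines mature RPE, had no more than 3 reads in any GFP library. Of the 12, 9 were tested in Sox2 against GFP and 4 passed, all lower, where 41.6% of all genes passed and 19.9% were lower. Without GFP replicate 1, 5 of the 9 passed, all lower, and the share of all genes there is not given here. PMEL, TYR and TYRP1, genes of pigment production, had log2 changes of -5.23, -5.03 and -4.21, and SERPINF1, a secreted RPE factor, of -3.62 (limma, adjusted p = 1.1e-11, 1.73e-08, 7.67e-11 and 2.94e-09). Of 6 neural progenitor markers 2 passed the filter, with a median log2 change of -0.53 in Sox2 against GFP, and FABP7 and HES5 had at most 3 reads in every library. Of 6 pluripotent markers all were tested and 4 fell in the Sox2 line, among them NANOG (-2.20), LIN28A (-1.08) and TDGF1 (-1.17, limma, adjusted p = 0.00785, 0.000255 and 0.00294), with summed levels of 216.6 to 328.7 in Sox2 against 448.1 to 642.5 in GFP. NANOG was at 16.88 or less in every library and can share reads with its pseudogenes, and NANOG and TDGF1 lost the call without Sox2 replicate 2. The part of these markers in the SOX values was not tested.

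**Figure D5:**
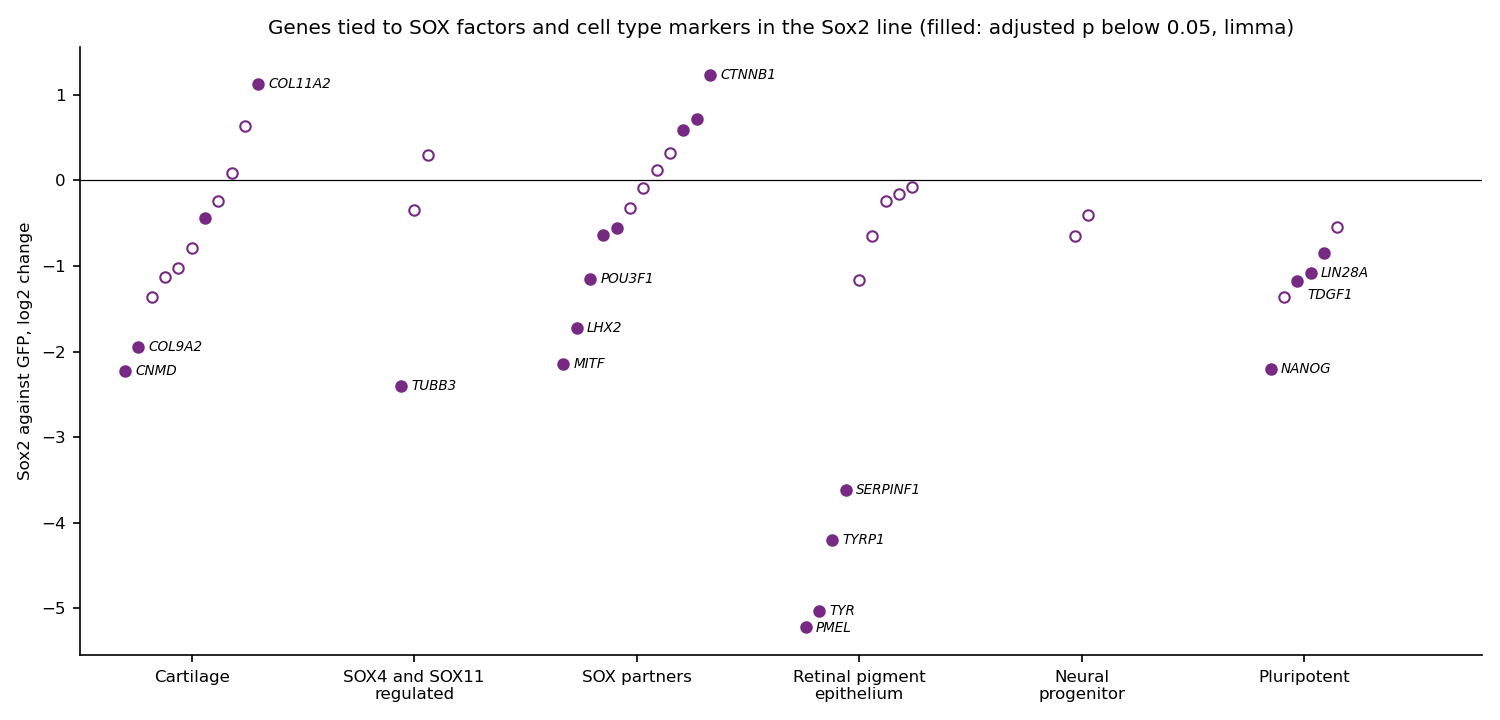
Log2 change in Sox2 against GFP of each tested gene in 6 lists; points are genes in order of their change, and filled points passed an adjusted p of 0.05 in limma. The pigment genes PMEL, TYR and TYRP1 lie lowest, between -5.23 and -4.21, and CTNNB1 lies highest at 1.24.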

How the data were processed

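Polyadenylated RNA of 11 ARPE-19 libraries was measured, grouped by sample title. Per the submitters' processing notes, STAR 2.7.1a and featureCounts 1.6.2 were used and GRCh38 is among the builds named; the annotation, strand setting and scaling are not given in the sources used here. The values the authors deposited are a signal in normalised counts: dividing by a single library-specific step returned whole reads for 100% of entries no higher than 200, at a tolerance of 0.0061.

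The main test was limma 3.58.1 (R 4.3.3) on log2(normalised count + 1) over all 11 libraries, with features at 10 or more in at least 2 libraries and p-values adjusted over 18828 genes at 0.05; fold changes are on the log2(value + 1) scale, where the added 1 shrinks the ratio of low values. Alternatives were edgeR 4.0.16 and DESeq2 1.42.0 on recovered reads, other scalings, filters, pseudocounts and left-out libraries. Exon lengths and positions came from GENCODE 29 on GRCh38. The fit was tested on simulated data. Genes named from a list are up to 4 with a log2 change of at least 1 and adjusted p under 0.05 in Sox2 against GFP, largest first. The members, lists and rules were chosen with earlier results of these data known. No batch is labelled. Deviations from group means correlated above 0.1 in 2 of 20 pairs of same-numbered libraries (range -0.069 to 0.435). These were GFP replicate 1 with OSK replicate 1 (0.435) and GFP replicate 2 with OSK replicate 2 (0.31). GFP replicate 3 with OSK replicate 2, which differ in number, correlated at 0.337. In groups of 2 libraries such deviations mirror each other, so the 20 pairs are not separate checks. Whether the numbers mark a pairing is not settled by them, and the main test did not pair libraries. Results for some listed genes are not reported here.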

Additional observations from a re-analysis of the deposited data

Results flagged for a closer look

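SOX14, a SOXB2 gene that did not pass the filter on low values, was at 5.42 normalised counts in OSK replicate 1, above the level in every GFP library, and at 0 in OSK replicate 2. OSK replicate 1 is 1 of the 2 libraries with reads on more features (32493) than the rest, and the part of this in the value was not tested.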

How the results depend on the processing

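In all, 98 log2 changes were recomputed under the alternative settings, which gave 2235 values. Of these values 2105 kept direction and side of the threshold, 92 lost the threshold, 10 gained it and 28 changed sign. In every setting run, 67 results kept both. All 6 calls in Sox2 against GFP (SOX4, SOX5, SOX6, SOX8, SOX9 and SOX12) are among these. The cause of the changes was not tested.

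The sign changes concern values that passed no test. With GFP replicate 1 and OSK replicate 1 both left out, SOX6 became 0.23 in Oct4 and 0.14 in OSK, SOX8 -0.054 in Klf4, SOX10 0.22 in Oct4 and 0.83 in Sox2, SOX11 0.48 in OSK and SOX13 0.024 in Sox2, each against GFP. Leaving out each replicate in turn gave -0.26 to 0.23 for SOX6 in Oct4 and in OSK, -0.054 to 0.32 for SOX8 in Klf4, -1.41 to 0.22 for SOX10 in Oct4, -0.82 to 0.83 for SOX10 in Sox2, -0.72 to 0.14 for SOX11 in OSK, -0.12 to 0.024 for SOX13 in Sox2 and -0.11 to 0.24 for SOX15 in OSK. In OSK against Sox2 SOX11 ran from -0.037 to 0.65, and in OSK against Oct4 SOX6 ran from -0.13 to 0.13. TMM over all features put SOX13 at 0.043 in Sox2, and the replicate block put SOX15 at -0.11 in OSK. SOX6 in OSK against Oct4, near 0 as reported, was 0.009 and 0.0022 with edgeR (TMM and median-of-ratios factors), 0.0017 with DESeq2 and 0.011 with TMM over tested features.

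Members called in Klf4 against GFP were 3 with DESeq2 and 3 with only the compared groups, against 6. In OSK against Oct4 they were 5 with only the compared groups, against 3. In OSK against Klf4 leaving out each library in turn gave 3 to 6 members and 2539 to 4918 genes, against 5 and 4049. TMM over all features moved the median change of all genes in OSK against the sum from -0.017 to -0.144, and SOX12 lost its call there. The sum had no value with only the compared groups. With the replicate number as a replicate block, 6 members passed in Sox2 against GFP, as without it, and 4 in Klf4 against GFP. Except for OSK against Klf4, the share of all genes passing in these settings is not given here. These member counts therefore do not show a change apart from that of other genes.

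SOX10 and SOX11 had few reads and the widest intervals, which limits what can be said of them at this depth.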
